A study of Rattus norvegicus with 4 samples.

Results

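The count table of this rat embryonic stem cell (ESC) RNA-seq experiment lists 34773 genes. Of these, 1890 are loci that the authors added beyond the annotated genes, numbered from 1 to 1890, and each is called here a locus with its number. The 1211 added loci described here were chosen by their reads, as those with at least 40 counts summed over the 4 libraries. The other 679 had fewer counts, and 26 of them had 0. One library came from WT cells, which the paper describes as DA-5-3 rat ESCs with a Rex1-GFP reporter, and 3 came from Thop1-KO subclones (#1, #2 and #3) made from that line with Cas9 and puromycin selection. WT and the subclones therefore share the line and the reporter, and the paper's methods describe culture on feeder cells in 2i/LIF medium (PD0325901, CHIR99021 and LIF). The deposited design text calls the cells haploid, whereas the paper calls DA-5-3 diploid. Because WT has 1 library, the spread between replicates came from the 3 subclones alone, and the genotype cannot be told apart from any other property of the single WT culture.

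Transcripts outside the annotated genes are found in most deep RNA-seq experiments. They include long noncoding RNAs, RNAs that start on the opposite strand of a shared promoter, unlisted first or last exons of known genes, retrocopies of abundant mRNAs, and transcripts driven by endogenous retroviruses. Endogenous retroviruses and LINE-1 elements are known for their activity in early embryos and ESCs, where their long terminal repeats can act as promoters.

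A promoter can be transcribed in both directions. By the deposited strand, 49 of the 1211 loci lay within 1 kb upstream of a protein coding gene on the opposite strand. Of these, 5 passed the test between Thop1-KO and WT, which 13.8% of all genes tested passed. The promoters beside 3 of the 5 are shown (values further on), chosen after their values were seen. The promoters beside loci 343 and 1806 are not shown. Each is the RefSeq window of 300 bases on GRCr8, from 250 bases before the gene's start to 50 after it, on the gene's own strand, and capitals mark CpG dinucleotides. The start site in RefSeq may differ from that in the deposited annotation, and the coordinates are not those of the deposited table.
Pcnx3 promoter: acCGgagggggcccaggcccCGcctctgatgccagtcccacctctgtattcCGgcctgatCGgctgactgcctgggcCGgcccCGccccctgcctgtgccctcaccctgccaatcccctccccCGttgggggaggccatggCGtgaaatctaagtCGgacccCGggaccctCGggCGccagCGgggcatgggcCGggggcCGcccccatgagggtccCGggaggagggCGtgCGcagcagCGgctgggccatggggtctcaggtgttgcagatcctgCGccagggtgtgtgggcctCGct
Ndufb2 promoter: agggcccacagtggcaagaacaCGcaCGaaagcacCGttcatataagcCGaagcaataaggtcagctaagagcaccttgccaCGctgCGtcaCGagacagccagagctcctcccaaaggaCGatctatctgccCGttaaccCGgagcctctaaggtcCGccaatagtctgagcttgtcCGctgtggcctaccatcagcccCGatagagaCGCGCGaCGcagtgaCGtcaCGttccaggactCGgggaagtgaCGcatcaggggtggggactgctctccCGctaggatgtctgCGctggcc
Pigb promoter: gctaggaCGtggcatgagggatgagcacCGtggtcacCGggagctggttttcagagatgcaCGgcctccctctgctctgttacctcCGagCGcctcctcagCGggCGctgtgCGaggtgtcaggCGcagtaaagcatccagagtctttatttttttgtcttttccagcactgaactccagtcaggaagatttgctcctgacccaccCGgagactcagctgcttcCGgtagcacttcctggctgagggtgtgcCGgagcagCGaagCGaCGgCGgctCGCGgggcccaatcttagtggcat
Pcnx3 lies at chr1:212402918-212403217 on the minus strand, Ndufb2 at chr4:69334057-69334356 on the plus strand and Pigb at chr8:82656274-82656573 on the minus strand. They held 21, 23 and 19 CpG dinucleotides, against a median of 7 over 33469 RefSeq promoters of this length, of which 77.4%, 80.5% and 74.3% held fewer. No TATAAA was found on either strand, a motif that 14.2% of these promoters hold. CCAAT occurred once in each (37.5% of promoters hold it), and GGGCGG occurred 2 times in the Pcnx3 window alone (33.1% hold it).

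The added loci were short and spliced. Their exon sequence had a median length of 1081 bases (range 201 to 10769) over a median span of 4671 bases, and 129 of them (10.7%) were 1 unbroken block. The 158 annotated lincRNA genes with at least 40 counts had a similar median length of 990 bases and a median span of 3977 bases, against 2346 and 20108 bases for 11944 protein coding genes. Strands were evenly used, with 603 loci on plus and 608 on minus, although the library kit is described without a step that marks strand. The loci lay on 21 chromosomes, and 11 more were on unplaced scaffolds.

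Most added loci were far from annotated coding genes. The median distance to the nearest protein coding gene was 23.1 kb (quartiles 5.64 and 70.3 kb, farthest 2465 kb, n = 1205 with a coding gene on the same sequence). Within 1 kb there were 130 loci, within 5 kb 281 (23.2%), and 224 were over 100 kb away. Only 4 overlapped an annotated gene. By position, 344 loci were upstream of the nearest coding gene on the same strand, 310 upstream on the opposite strand, 263 downstream on the same strand and 285 downstream on the opposite strand. Below 1 kb the loci upstream on the opposite strand were the most frequent (49), ahead of 39 downstream on the opposite strand, 26 upstream on the same strand and 13 downstream on the same strand.

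**Figure D1:**
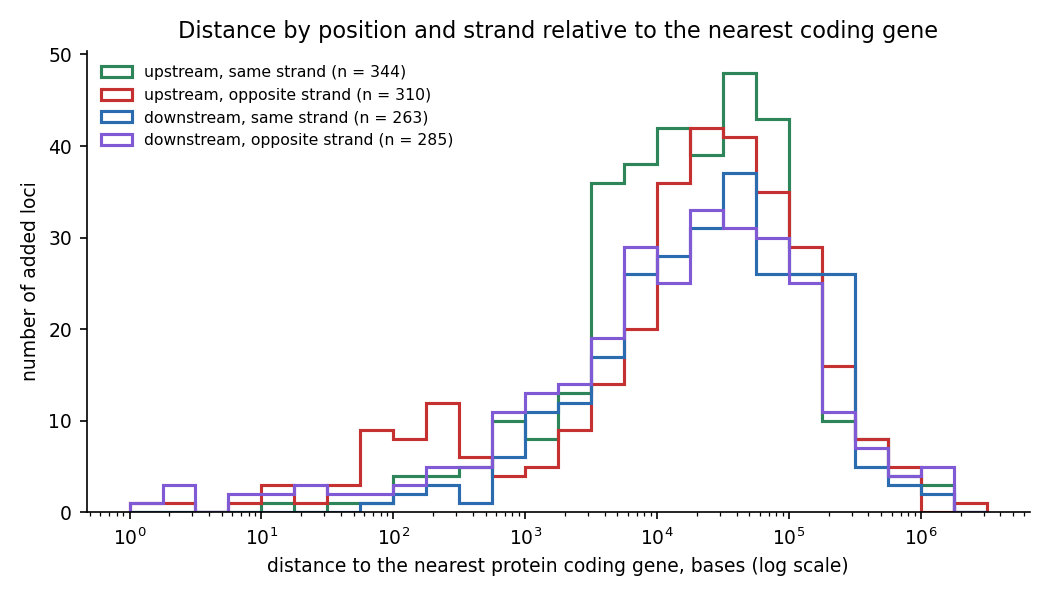
Number of added loci (vertical axis) by distance to the nearest protein coding gene in bases (log scale), with 1 line for each position and strand relative to that gene. The main peak lies above 1 kb for every line, and the line for upstream loci on the opposite strand has a further shoulder below 1 kb, where 49 loci lie.

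At the minimum of 40 counts, loci 109, 1133 and 1210 had 40 counts each, just inside, and loci 306, 628 and 883 had 39, just outside. Over the 1211 loci, 451 had fewer than 100 counts. At least 10 counts were present in all 4 libraries for 764 loci. Per length, the median level was 2.10 FPKM (mean over the libraries), near the 1.77 FPKM of the annotated lincRNA genes and below the 7.61 FPKM of protein coding genes.

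The most abundant loci matched known proteins. A match here is the Swiss-Prot or Pfam entry that the authors wrote in the description of a locus, and 294 loci have one. Locus 1552, with a match to ribosomal protein S26, reached the highest mean level per length (1010.0 FPKM), followed by locus 240 with a match to ribosomal protein L38 (1007 FPKM). Locus 1459 matches calmodulin, a calcium sensor (758 FPKM). Locus 7, a plus-strand locus on chromosome 1 (11907711 to 11915491 in the deposited coordinates, build not given in the sources used here), matches NLRC3, a NOD-like receptor that restrains innate signalling (495 FPKM). Locus 296 matches CALCOCO2, an autophagy receptor (411 FPKM). By counts, locus 7 stood first with 192677 over the 4 libraries, then locus 296 with 144596 and locus 1197, a retroviral locus, with 79851. The longest spans belonged to loci 22, 251 and 265 (428628, 376544 and 328030 bases), and the longest exon sequences to loci 1782, 1590 and 96 (10769, 9833 and 9785 bases).

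Library totals were between 15405499 and 17936544 counts. Thop1 itself had 1843, 1635 and 2680 counts in #1, #2 and #3 and 5500 in WT (log2 fold change -1.66, adjusted p = 0.0187 by edgeR, standard error 0.29). Pluripotency markers were present in every library (summed CPM 7965, 6642 and 7768 in #1, #2 and #3 and 7803 in WT). Of 10 rows of that list, 2 were called higher (Esrrb and Tfcp2l1) and 1 lower (Utf1). Summed fibroblast markers, which feeder cells could bring, were at 4121, 4407 and 4305 CPM in the subclones and 1844 in WT, mostly from Fn1, and the defining markers Dcn, Lum and Thy1 were at 0 in all 4 libraries. WT was below all 3 subclones for 5 of the 6 fibroblast markers tested and for 5 of the 6 primitive endoderm markers tested. Of these, edgeR called 1 fibroblast marker (Fn1, higher) and 0 primitive endoderm markers, of which 3 were higher and 1 lower at an unadjusted p below 0.05. WT also had a larger share of counts on the mitochondrial genome (2.04% against 1.32%, 1.31% and 1.31%) and on annotated rRNA genes (0.00446% against 0.000817%, 0.00075% and 0.000669%). The part of these differences in the results below was not tested. In bulk RNA, fewer cells of a type and less RNA per cell cannot be told apart.

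Added loci were lower in Thop1-KO more often than they were higher. By edgeR's quasi-likelihood test, 133 loci (11.0%) were called lower in Thop1-KO and 51 (4.21%) higher, at a Benjamini-Hochberg adjusted p below 0.05 over all 15028 genes tested. Over all genes, 5.17% were called lower and 8.62% higher (13.8% in all), the opposite balance. The median log2 fold change of the added loci was -0.72, against 0.06 for all genes tested, and placing loci with 0 counts in one genotype at their bound left both medians at these values. Without a variance model, WT lay above all 3 subclones for 721 loci (59.5%, against 37.6% of all genes) and below all 3 for 227 (18.7%, against 38.1%). The 158 annotated lincRNA genes had 10 calls in each direction and a median of 0.20. Leaving out #3 reduced the calls on added loci to 46, leaving out #2 raised them to 459, and of the 184 loci called, 45 remained called without each subclone in turn. Every one of the 184 kept its direction in these fits. All of these fits keep the same single WT library. A call or direction that was kept, here and below, therefore does not measure how far WT cultures vary.

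**Figure D2:**
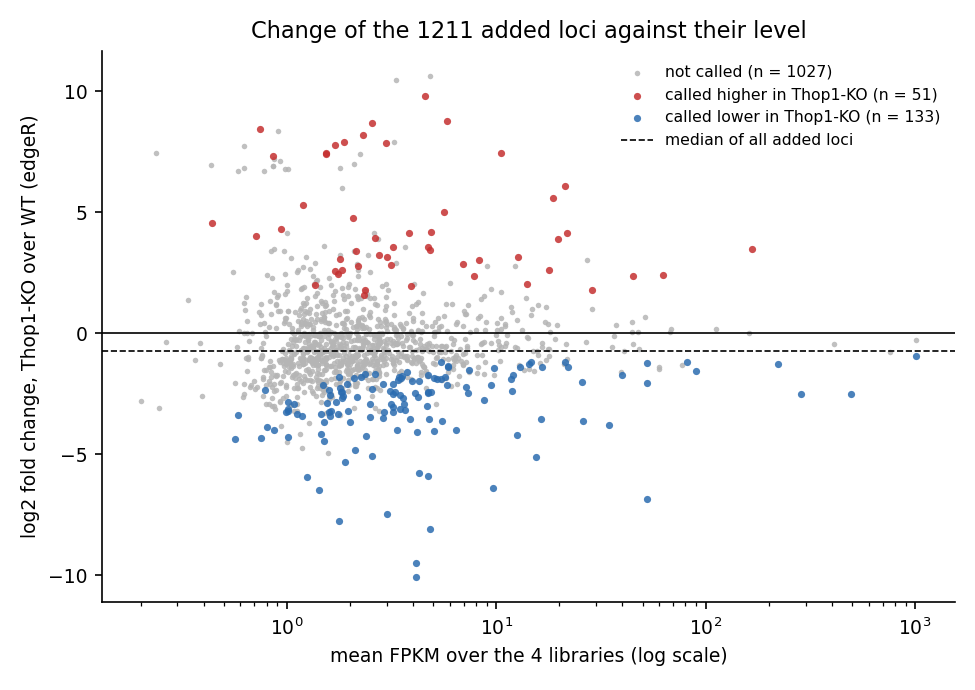
Each point is 1 of the 1211 added loci, with its mean FPKM over the 4 libraries (horizontal, log scale) and its log2 fold change of Thop1-KO over WT (vertical). The dashed line is the median of -0.72, and the 133 loci called lower (blue) outnumber the 51 called higher (red). Points beyond about 6 on the vertical axis mostly have 0 or few counts in one genotype, where the fitted value depends on the fit's prior count.

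The share of all counts that fell on the added loci was 1.47%, 1.46% and 1.45% in #1, #2 and #3 and 2.44% in WT. The SD of the subclones was 0.0109 percentage points (n = 3), and WT lay 0.979 points above their mean. With 3 libraries against 1, the exact permutation test (one-sided) gave p = 0.25, which is the smallest it can give. Locus 7 carried much of this difference, and without it the shares were 1.33%, 1.30% and 1.33% against 1.67%.

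Locus 7 had the most counts of the 8 loci with the smallest p-values among those lower in Thop1-KO. Locus 7 reached 24821, 27699 and 21654 counts in #1, #2 and #3, against 118503 in WT. WT was above every subclone, at a log2 fold change of -2.49 (adjusted p = 0.00678, standard error 0.20). Locus 354 matches ribosomal protein L35a, a large-subunit protein, and lies 1853 bases upstream of Lmln on chromosome 11. It had 6, 15 and 4 counts in the subclones against 822 in WT (log2 fold change -6.84, standard error 0.54). In WT it was thus an abundant locus for its 267 bases, at 204 FPKM, and in the subclones it stayed between 0.813 and 3.14 FPKM.

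Loci 526 and 527 lie 38.6 kb apart on the plus strand of chromosome 14 and have no protein match. Locus 526 had 1735, 1783 and 1497 counts against 8111 in WT (-2.51, standard error 0.22). Locus 527 had 42, 45 and 63 against 591 (-3.80, standard error 0.33). The nearest coding genes, 4872 bases from locus 526 and 25.7 kb from locus 527, were also called lower. Loci 1186, 872, 1808 and 1446, also without a match, had at most 47 counts in any subclone and 189, 283, 271 and 413 in WT. The adjusted p was 0.00678 for each of these 8 loci, and all 8 remained called without each subclone in turn.

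Among the loci higher in Thop1-KO, matches to proteins and to retroviruses led. Locus 1197, a plus-strand locus on chromosome 4 (81275457 to 81296390), matches a retroviral Pol polyprotein, which carries reverse transcriptase and integrase. It had 26570, 20015 and 31267 counts in the subclones against 1999 in WT, a difference of 3.47 on the log2 scale (adjusted p = 0.00678, standard error 0.35). It lies 15.1 kb upstream of Snx10, a sorting nexin gene on the same strand, whose own log2 fold change was 1.80 (adjusted p = 0.0171, and 0.0669 without #3).

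Locus 1820, on an unplaced scaffold, matches FAM76A and had 218, 250 and 213 counts against 1 in WT. The ratio of subclones to WT was 193, with a 95% counting interval of 34.5 to 7637. Locus 1831, on another unplaced scaffold, matches LAS1L, a factor of ribosomal RNA processing, and had 171, 189 and 173 counts against 3 (ratio 50.4, interval 17.1 to 245). Neither scaffold holds an annotated coding gene in the deposited table. Locus 257 matches multidrug resistance-associated protein 1, an efflux pump, and had 149, 98 and 102 counts against 0, at least 33.0-fold higher than a floor of 3 counts in WT. Intervals and floors cover counting error only.

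Locus 1811 is an unspliced 649-base locus 1456 bases upstream of Mtcl1, a microtubule cross-linking factor. Its deposited strand is that of Mtcl1, which is uncertain for an unspliced locus without strand marking. It had 379, 233 and 363 counts in the subclones against 4 in WT (6.08, standard error 0.67, adjusted p = 0.00705). Mtcl1 was not called (1.03, adjusted p = 0.0898). Locus 1116 matches folylpolyglutamate synthase, which adds glutamates to folates, and lies 2221 bases upstream of Fpgs, the gene of that enzyme. It had 624, 355 and 582 counts against 25 (4.15, standard error 0.55, adjusted p = 0.0097), while Fpgs itself had 2214, 1154 and 2160 against 3170 (-1.01, adjusted p = 0.117). These loci, with 638 and 75 described further on, remained called without each subclone in turn.

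**Figure D3:**
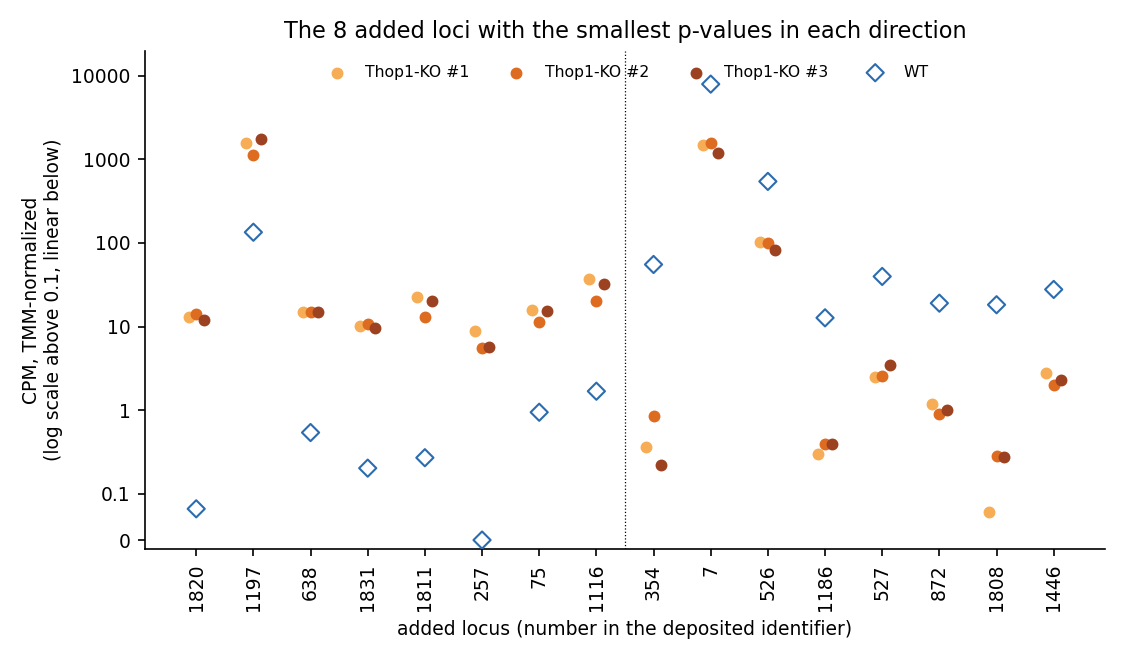
TMM-normalized CPM (vertical, log scale above 0.1 and linear below) of the 8 added loci with the smallest p-values in each direction, higher in Thop1-KO at left and lower at right, with 1 filled point per subclone and an open diamond for WT. In all 16 loci the WT value lies outside the range of the 3 subclones, and locus 257 is at 0 in WT.

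Some loci were near absent in 1 genotype, with at most 3 counts in each of its libraries. At most 3 counts in WT with at least 10 in every subclone were found for 39 loci (3.22%, against 1.98% of all genes tested). At most 3 in every subclone with at least 10 in WT were found for 12 (0.991%, against 0.845%). The 2 rules differ, since one asks for few counts in 1 library and the other in 3. Loci were chosen on counts summed over all libraries, so these loci passed the count minimum through the genotype where they were higher. Locus 486 had 0 counts in all 3 subclones and 120 in WT, at least 141-fold lower in Thop1-KO than WT, and locus 406 had 0 and 79 (at least 92.9-fold lower). Loci 452, 593 and 1855 had at most 3 counts in any subclone and 184, 84 and 100 in WT. All 5 are without a protein match and remained called without each subclone in turn. They were picked for at most 3 counts in every subclone. Leaving out a subclone therefore says little about their contrast, which rests on the single WT library kept in each fit. In the other direction, loci 1818 and 457 had 0 counts in WT but did not pass the test (adjusted p = 0.0709 and 0.0576). Their subclones were far apart, at 199, 400 and 19 counts for locus 1818 and 286, 22 and 236 for locus 457. Each passed once its subclone with the fewest counts was left out, #3 for locus 1818 and #2 for locus 457. Such a fit drops the subclone nearest to WT, so passing in it says little.

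The balance of calls differed by the kind of protein match. The classes were formed from the deposited descriptions after the table had been seen. The 917 loci without any match had 20 calls higher (2.18%) and 101 lower (11.0%), with a median log2 fold change of -0.83. The 176 loci with a match to another protein had 27 higher (15.3%) and 21 lower (11.9%), with a median of -0.12. Counts of copies of one sequence are uncertain, since reads can be shared between them, and this holds for the retroviral, LINE-1, ribosomal protein, zinc finger and NEDD4 classes.

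**Figure D4:**
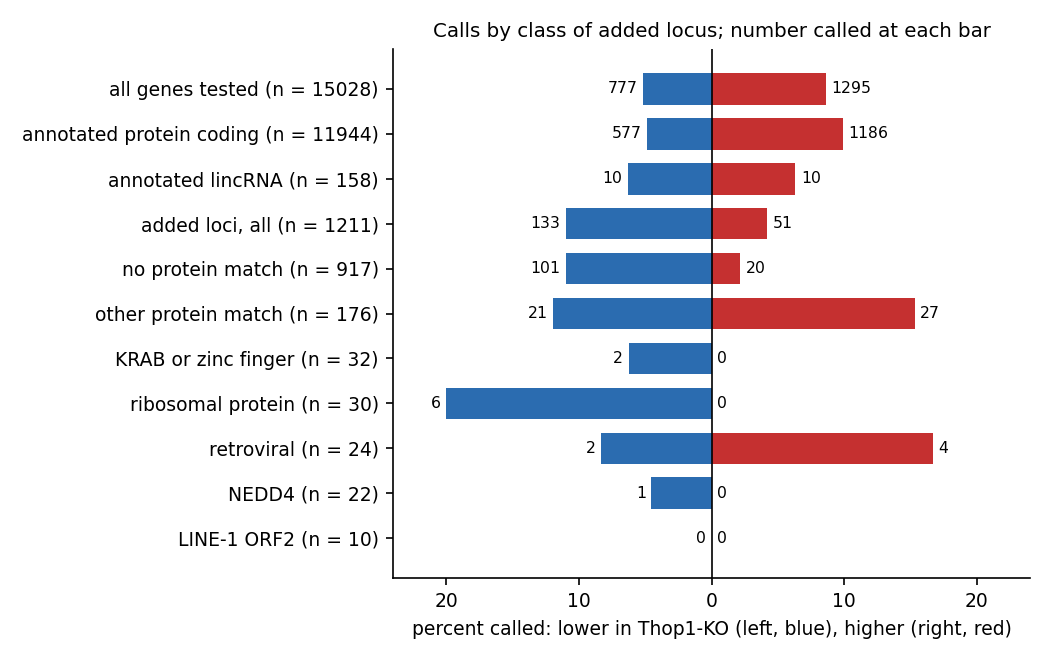
Percent of tested genes or loci called higher (red, right) and lower (blue, left) in Thop1-KO, with the number called at the end of each bar, for all genes tested, 2 annotated biotypes, all added loci and their classes. Added loci have more lower than higher calls (133 and 51), all genes the reverse (777 and 1295), and the retroviral and other protein classes have more higher than lower calls.

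The retroviral class held 24 loci, of which 4 were called higher (16.7%) and 2 lower (8.33%), with a median of 0.34. Over all genes tested these shares were 8.62% and 5.17%. Besides locus 1197, locus 638 (Pol, chromosome 16) had 252, 265 and 266 counts against 8 (4.78, standard error 0.48, adjusted p = 0.00683). Locus 1806 (Gag-Pol, chromosome 9) had 1497, 1174 and 2254 against 339 (2.04, adjusted p = 0.0293), and locus 945 had 121, 50 and 113 against 4 (4.30, adjusted p = 0.0279). The retroviral loci did not all move one way. Loci 1845 and 1745 had 31, 21 and 25 counts against 142 (-2.69, adjusted p = 0.0161) and 18, 19 and 33 against 88 (-2.15, adjusted p = 0.0424). Without #3, the adjusted p of 1806, 945, 1845 and 1745 was 0.0755, 0.0756, 0.0706 and 0.109. The largest members after 1197 were not called, with 3129, 2707 and 3514 counts against 1576 for locus 1782 and 2967, 1360 and 2628 against 1511 for locus 1876. The class took 0.214%, 0.172% and 0.241% of counts in the subclones and 0.0543% in WT, and without locus 1197 it took 0.0606%, 0.0505% and 0.067% against 0.0414%. A match to PEG10, an imprinted gene derived from a retrotransposon, was carried by locus 1187, 17.5 kb from Sgce, with 109, 17 and 88 counts against 4 (3.90, standard error 1.32, adjusted p = 0.0931).

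Of 10 loci with a match to the LINE-1 ORF2 protein, 0 were called by edgeR, against 13.8% of all genes tested. WT was above all 3 subclones for 7 (70.0%), against 59.5% of all added loci and 37.6% of all genes tested. Their median was -1.18, against -0.72 for all added loci. The largest, locus 617, had 92, 181 and 304 counts in the subclones against 363 in WT (-1.17, standard error 0.55, adjusted p = 0.187), so its subclones spread widely below WT.

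Ribosomal protein matches were lower where they were called. Of 30 such loci, 6 were called lower and 0 higher, with a median of -0.98, and WT was above all 3 subclones for 20. Locus 1552 (S26) had 16723, 17071 and 16126 counts against 27284 (-0.95, standard error 0.19, adjusted p = 0.0259). Locus 821 (L13a) had 1612, 1244 and 1595 against 3771 (-1.58, adjusted p = 0.0148), and locus 1543 (L10) had 430, 504 and 500 against 932 (-1.20, adjusted p = 0.0292). Loci 1713 (L29) and 902 (L10a) were called at -2.47 and -1.50, and locus 354 was described above. Locus 240 (L38), with 6815, 6211 and 5562 counts against 6364, was not called (-0.27, adjusted p = 0.454), although its CPM in WT was above all 3 subclones. Without #3 only locus 354 of the 6 remained called (the others between 0.0567 and 0.214).

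The zinc finger and NEDD4 classes had few calls. Called lower were 6.25% and 4.55% of their loci, near the 5.17% of all genes, and 0 were called higher, against 8.62%. Of 32 loci with a KRAB or zinc finger match, a large class of DNA-binding repressors, 2 were called lower and 0 higher, with a median of -0.11. Locus 1322, with 19, 22 and 43 counts against 196 (-3.04, adjusted p = 0.0158), remained called without each subclone. Of 22 loci with a match to NEDD4, a ubiquitin ligase, only locus 1268 was called (3, 2 and 2 counts against 43), and without #3 its adjusted p was 0.0762. Locus 1784 of this class had 1214, 84 and 966 counts in the subclones against 79 in WT, so #2 was close to WT and far from the other subclones.

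Some loci match proteins tied to ribosomal or mitochondrial DNA. Both loci with a match to TAR1, a protein encoded antisense to ribosomal RNA genes in yeast, were called lower. Locus 1352 had 639, 504 and 596 counts against 2068 (-2.06, adjusted p = 0.00803) and locus 1421 had 14, 32 and 23 against 309 (-3.98, adjusted p = 0.00705). Locus 1009 on chromosome 20, with a match to NADH-ubiquinone oxidoreductase chain 4, a protein otherwise encoded in mitochondrial DNA, had 26, 55 and 29 against 492 (-3.98, adjusted p = 0.00705). All 3 remained called without each subclone. Locus 1618, with a match to cytochrome c oxidase subunit 1, also a mitochondrially encoded protein, had 75, 40 and 37 counts against 54 and was not called (-0.31, adjusted p = 0.739). The shares of counts on rRNA genes and on the mitochondrial genome, higher in WT as given above, moved with them, and their part in these 3 results was not tested. These 4 loci were picked out after their values were seen.

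Added loci and the coding genes beside them changed largely apart. Within 5 kb, 248 loci had a nearest coding gene that was tested. Of these loci 13 were called higher and 36 lower, while of their coding genes 32 were called higher and 12 lower. These balances have the directions seen in the wider sets. Over all added loci 4.21% were called higher and 11.0% lower. For protein coding genes with at least 40 counts the shares were 9.93% and 4.83%. Locus and gene were both called in 15 pairs, in the same direction in 8 and in opposite directions in 7, and the locus alone was called in 34. Across these pairs of log2 fold changes Pearson's r was 0.01 and Spearman's rho was -0.01 (n = 248 pairs, all from the same 4 libraries, some sharing a coding gene). Over all distances, 902 loci had a tested neighbour, and r was 0.02. Loci and genes next to each other can share reads where an annotated end is misplaced.

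**Figure D5:**
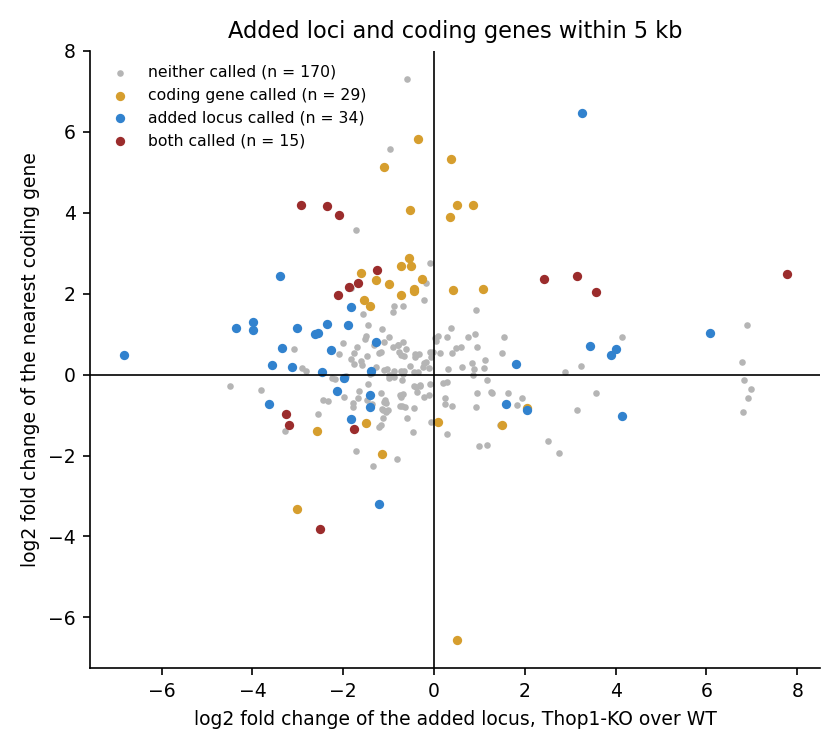
Log2 fold change (Thop1-KO over WT) of added loci (horizontal) and of the nearest protein coding gene within 5 kb (vertical), 1 point per pair, coloured by which of the 2 was called. The 15 pairs with both called fall in several quadrants, 8 with the same and 7 with opposite direction.

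Pairs that moved together lay on either side of the gene, and the pairs given here were picked out after their values were seen. Locus 284, 14 bases upstream of Kdm6b on the same strand, matches KDM6B, a histone H3 lysine demethylase, and had 94, 98 and 106 counts against 7 (3.57, adjusted p = 0.0145). Kdm6b had 524, 544 and 582 against 113 (2.05, adjusted p = 0.0149). Locus 678, 76 bases downstream of Lpar2, a lysophosphatidic acid receptor gene, had 634, 484 and 686 counts against 95 (2.43, adjusted p = 0.0148), and Lpar2 had 2276, 1982 and 2617 against 378 (2.37, adjusted p = 0.00896). In each of these 2 pairs locus and gene were low in the same library, WT. Locus 1661, 213 bases from Trim71, an RNA-binding regulator of stem cells, lies on the opposite strand beyond its end, with 646, 427 and 572 counts against 53 (3.14, adjusted p = 0.0112), and Trim71 was at 2.45 (adjusted p = 0.0154). Locus 234, 2232 bases upstream of Mllt6 with 17, 32 and 36 counts against 0, was at least 8.03-fold higher, and Mllt6 was at 2.49 (adjusted p = 0.00705). Going down together, locus 1617, 2030 bases downstream of Cbx5, the gene of a heterochromatin protein, had 218, 184 and 296 counts against 673 (-1.77, adjusted p = 0.0219), and Cbx5 was at -1.34 (adjusted p = 0.0386). Without #3, locus 1661, Trim71, Lpar2 and Mllt6 remained called, and 284, Kdm6b, 678, 234, 1617 and Cbx5 did not (adjusted p between 0.0591 and 0.133).

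In 3 further pairs, a locus past the end of a coding gene, on its strand and with a match to that gene's own protein, went down where the gene went up. Locus 1131, 278 bases downstream of Tmem87a, had 131, 206 and 145 counts in the subclones against 501 in WT (-1.88, adjusted p = 0.0207). Tmem87a had 172, 273 and 219 against 42 (2.16, adjusted p = 0.0291). Locus 1463, 200 bases downstream of Birc6, an inhibitor of apoptosis with ubiquitin ligase activity, had 70, 118 and 100 against 260 (-1.68, adjusted p = 0.0348), and Birc6 had 213, 306 and 315 against 49 (2.26, adjusted p = 0.0224). Locus 1081, 6625 bases downstream of Nup160, a nuclear pore gene, had 62, 70 and 48 against 298 (-2.54, adjusted p = 0.0114), and Nup160 had 288, 325 and 312 against 57 (2.20, adjusted p = 0.0176). In all 3 pairs WT was highest for the locus and lowest for the gene. These pairs were picked out after their values were seen. In the other protein class, 25 loci shared a name with a coding gene within 50 kb by word overlap, locus 1081 not among them. Locus and gene were called in opposite directions in 3 of these and in the same direction in 2. One of the latter is locus 1865 with Hcfc1 (4.57 and 3.24). Without #3 none of the 6 was below 0.05 (adjusted p between 0.0501 and 0.134).

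The reverse was seen for Cnot10, a subunit gene of the CCR4-NOT deadenylase. Locus 1717, 5910 bases upstream on the same strand with a match to that subunit, had 128, 129 and 93 counts against 19 (2.38, adjusted p = 0.033), and Cnot10 had 467, 474 and 548 against 981 (-1.22, adjusted p = 0.0283). Without #3 these adjusted p-values were 0.0958 and 0.127.

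Loci 1707 and 1708 gave opposite calls side by side. Both are on the minus strand of chromosome 8, 664 bases apart, and both match cyclin B2, a regulator of mitosis. Locus 1707 (76847974 to 76850577) had 157, 170 and 157 counts against 547 (-1.99, standard error 0.29, adjusted p = 0.0116). Locus 1708 (76851242 to 76861253) had 481, 567 and 455 against 122 (1.80, standard error 0.35, adjusted p = 0.0239). The summed CPM of the 2 loci was 38.0, 41.7 and 34.1 in the subclones and 45.0 in WT, so that their sum differed far less than either locus, with WT the highest. Without #3 the adjusted p-values were 0.0626 and 0.089. Over all 117 pairs of added loci within 10 kb of each other, both were called in the same direction in 3 and in opposite directions in 2, with 1 of the pair called in 25 (r = 0.10 across pairs). The other opposite pair is 158 and 61 near Vbp1 on chromosome 1, at -1.38 and 2.37. Of the 3 pairs with the same direction, 2 overlap on opposite strands, loci 837 and 872 on chromosome 19 and loci 1758 and 1805 on chromosome 9, and without strand their reads cannot be told apart.

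Of the 49 loci that start within 1 kb of a coding gene on the opposite strand, 2 were called higher and 3 lower. Of the 46 coding genes tested, 4 were called (8.70%), and locus and gene moved together in 1 pair. Over all genes tested 13.8% were called, so calls were no more frequent among these loci or genes. Locus 75, a 543-base locus 3 bases from Pcnx3, had 266, 202 and 275 counts in the subclones against 14 in WT (3.90, standard error 0.50, adjusted p = 0.00889). It is 1 unbroken block, so its place on the opposite strand is uncertain without strand marking. Pcnx3 had 2377, 2330 and 2241 against 1420 and was not called (0.47, adjusted p = 0.21). Locus 1239, with a match to thymosin beta-10, an actin-binding peptide, lies 254 bases from Ndufb2, a complex I subunit gene, and had 51, 36 and 45 counts against 166 (-2.14, adjusted p = 0.0225). Ndufb2 had 2037, 1460 and 1828 against 1991 (-0.39, adjusted p = 0.352), and its CPM in WT was above all 3 subclones. Locus 1646, 14 bases from Pigb, matches PIGBOS1, a mitochondrial microprotein whose human gene is named for lying opposite PIGB, and had 55, 36 and 38 counts against 137 (-1.89, adjusted p = 0.0382). Pigb had 6, 16 and 12 counts against 4, too few to show a difference (1.24, standard error 1.14). At these 3 promoters, printed above, the added locus was called and the coding gene was not, and the difference between them was not tested. Of the 2 promoters not shown, the coding gene was called lower with its locus beside locus 343 and was not called beside locus 1806. Without #3, locus 75 remained called and loci 1239 and 1646 did not (adjusted p = 0.0995 and 0.159).

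Near Thop1 itself, on chromosome 7, 5 added loci lay within 1 Mb. Loci 1557, 1556, 1502 and 1558 were not called, at -0.79, 0.04, -0.34 and -0.89. Locus 1503, with a zinc finger match and 4, 10 and 9 counts against 47, was called at -2.84 (standard error 0.71, adjusted p = 0.0447). It missed the threshold with library size alone as scaling (0.0529), with DESeq2 (0.0557) and without #1 or #3 (0.054 and 0.139).

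Unstable noncoding transcripts are removed by the nuclear exosome, and transcript ends are formed by the cleavage and polyadenylation machinery and the Integrator complex. Of 38 tested genes of these machineries, 3 were called higher and 2 lower, with a median of -0.13 (0.06 over all genes). These 5 calls are near the share over all genes tested, of which 13.8% were called (8.62% higher and 5.17% lower). All 3 that rose encode Integrator subunits: Ints2 with 145, 143 and 152 counts against 24 (2.37), Ints9 with 162, 257 and 387 against 32 (2.82) and Ints11, the catalytic subunit, with 1796, 1611 and 1873 against 525 (1.51). The 2 that fell were the exosome subunit gene Exosc5 (1213, 1228 and 1347 against 2248, -1.07) and the gene of the exosome helicase Mtrex (297, 366 and 373 against 626, -1.09). No other Integrator gene among the 38 was called. Outside the list, LOC103689975, whose description matches Integrator complex subunit 1, was called higher at 5.53. Other genes outside the list were not surveyed. WT was above all 3 subclones for 20 of the 38 and below for 9, against 37.6% and 38.1% of all genes tested. None of these 5 calls held without #3 (adjusted p between 0.0833 and 0.192).

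The subclones differed more among themselves at added loci than at coding genes. For the 264 loci with a mean of at least 100 counts in the subclones, the median coefficient of variation of CPM over the 3 subclones was 26.3% (quartiles 14.3% and 41.0%), against 16.8% for 8486 protein coding genes with the same minimum. Level alone was not matched between these groups. By level, calls were rarest below 1 FPKM (5 higher and 7 lower of 144 loci) and most frequent at 10 FPKM and over (12 and 25 of 112).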

How the data were processed

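Poly(A) RNA of 1 WT and 3 Thop1-KO cultures was sequenced. The authors deposited raw read counts per gene, with FPKM, gene length, position and description. The submitters' processing notes name HISAT2 2.0.5 and featureCounts 1.5.0-p3. The genome build, the program that added the loci and the strand setting are not given in the sources used here. Deposited FPKM values equalled counts divided by length and 1 factor per library, within 0.1% for all genes. Counts were tested with edgeR 4.0.16 (quasi-likelihood, TMM, filterByExpr with a minimum of 10 counts, Benjamini-Hochberg adjustment over 15028 genes, calls at an adjusted p below 0.05) in R 4.3.3. The standard error is the log2 fold change divided by the square root of F. All 1211 loci passed the filter. Alternatives used DESeq2 1.42.0, limma 3.58.1 on log2 FPKM, other scalings and filters, and each subclone left out. The labels do not say that subclones were cultured separately in time. The p-values therefore rest on the spread between these 3 subclones and hold no measure of spread between WT cultures.

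Loci named were the 8 with the smallest p-values in each direction, those with most counts, highest FPKM, longest spans and lengths, those near Thop1, those near absent in 1 genotype, those at the minimum of 40 counts, and the nearest coding genes of all these. Other loci, including those named by class or pair, were picked after their values were seen. The members, lists and tests were chosen with earlier results of these data known. The fit was tested on simulated data. Reads of repeats and gene copies can be misassigned, which limits single loci of those classes.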

Additional observations from a re-analysis of the deposited data

How the results depend on the processing

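The test called 184 added loci, 51 higher and 133 lower. DESeq2 called 77 higher. With at least 10 counts required in every library, 102 were called, 15 higher and 87 lower, a smaller share of higher calls. That follows in part from the filter, which drops loci under 10 counts in WT, such as loci 1820, 1831, 1811, 638 and 257. It also drops loci under 10 counts in a subclone, such as loci 354 and 486. Leaving out 1 subclone gave 46 to 459 calls, 14 to 127 higher and 32 to 332 lower, the lowest without #3 and the highest without #2. With at least 100 counts, WT lay outside the range of the subclones for 589 loci in place of 948, below for 151 and above for 438. The median length was 893 bases at 20 counts and 1398.5 at 100, and the single-block share at 100 counts was 8.82%. The share of loci near a coding gene was 10.7% within 1 kb, 34.2% within 10 kb, 12.1% for a gene on the same strand and 27.9% for any biotype. The excess share of counts in WT was 1.03 points with protein coding counts as denominator, 0.354 without locus 7 and 0.943 at 100 counts. Of the transcript end and decay genes 8 were called by DESeq2, 3 by limma with a pseudocount of 1, 17 without #2 and 0 without #3. Values near 0 changed sign for locus 1556 (-0.0595 with upper-quartile scaling, -0.00723 with limma at a pseudocount of 0.1, -0.26 to 0.20 with 1 subclone left out, lowest without #3), for Ap3d1 (-0.0220) and Vbp1 (-0.00405) with upper-quartile scaling, and for Ccdc66 (-0.20 to 0.54 with 1 subclone left out, lowest without #2); the cause was not tested. Other scalings left the median of the loci between -0.82 and -0.65, and limma on log2(FPKM + 1) gave -0.53. No paired analysis was possible because WT has 1 library, whose labels carry no replicate number, so at most 1 pair could be formed.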
